A study of Mus musculus with 8 samples.

Results

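The genes described here encode proteins of the mitochondrial ribosome. They were chosen by symbol alone, as every gene with a single annotated symbol made of Mrpl or Mrps and a number, which gave 76 genes of the 18193 named on the array. Mrpl symbols, counted here as the large subunit, numbered 47, and Mrps symbols, counted as the small subunit, numbered 29. These genes were read by 156 probe sets, the groups of short probes that report a transcript on an Affymetrix array, and each gene is represented by its brightest probe set, judged by the mean of all 8 arrays. Mrpl30 and Mrpl53 had only probe sets annotated to several genes and are not among the 76, and 1 probe set that Mrps34 shares with Nme3 was left out. No member was removed for low values: the means of all 76 brightest probe sets lay between 7.93 and 11.77 log2 units, above the median of 6.18 over all probe sets.

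The mitochondrial ribosome makes the few proteins encoded by mitochondrial DNA, all of them core subunits of the respiratory chain and of ATP synthase. Its RNAs come from the mitochondrial genome, but each of its proteins is encoded in the nucleus, translated in the cytosol and imported. Compared with its bacterial relative it carries less RNA and many added proteins with no bacterial counterpart. Muscle fibres are rich in mitochondria, and respiratory capacity is known to increase when myoblasts differentiate.

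The study used C2C12 cells, a long established line of mouse myoblasts. It compared 4 cultures infected with lentiviruses encoding DOR siRNA with 4 infected with lentiviruses encoding scrambled RNA. DOR is the product of Trp53inp2, and the title of the series ties it to mitochondria and insulin signalling in type 2 diabetes. All 8 cultures had received lentivirus at moi 100, were amplified for 5 to 7 days and were sorted for GFP (93 to 99% positive after the sort), then held for 4 days in 5% horse serum, per the labels' protocols. The same labels call the cells confluent myoblasts, so the labels do not settle the stage at harvest. The cultures of a group are labelled biological replicates, with no statement of how they were derived from the line, so the tests measure the spread between these cultures, which may in part be technical.

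The brighter probe set of Trp53inp2 read 11.50, 11.55, 11.43 and 10.92 log2 units in scrambled cultures 1 to 4 and 9.46, 9.93, 9.49 and 9.18 in DOR siRNA cultures 1 to 4. It fell by 1.83 ± 0.17 (SE, n = 4 per group; limma adjusted p = 0.00087). The dimmer probe set differed by 0.14 ± 0.08 (limma adjusted p = 0.52). Muscle identity markers were bright, with Des at 12.93, Myog at 13.70, Myh3 at 13.98 and Acta1 at 14.70 in the scrambled mean. All 7 muscle markers were lower in DOR siRNA cultures, 2 of them, Tnnt3 and Myh3, at a limma adjusted p under 0.05. All 6 measured markers of proliferating myoblasts were higher, 4 of them (Top2a, Cdk1, Ccna2 and Mki67) at that threshold. Markers of adipocytes, osteoblasts, macrophages and endothelium (11 measured) had scrambled means between 3.18 and 6.80, near or below the median of all probe sets, and none was called. The part of these marker shifts in the values that follow was not tested. In RNA from whole cultures, fewer cells of a type and less RNA per cell cannot be told apart.

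None of the 76 mitochondrial ribosomal protein genes passed the limma test (adjusted p under 0.05 over all 45037 probe sets), while 4.56% of all named genes did (3.11% higher and 1.45% lower). Among genes with a mean of at least 6.18, as all members had, the share was 6.72%. At an unadjusted p under 0.05 there were 3 members. Of these 1 had a positive difference, against 11.5% of all genes, and 2 a negative one, against 6.55%. With cultures paired by replicate number the count of members called was again 0, against 8.25% of all genes. Differences, given as log2 of DOR siRNA minus log2 of scrambled throughout, ran from -0.24 to 0.35. Their median was -0.042 for the 47 large subunit genes and -0.031 for the 29 small subunit genes, beside 0.015 over all genes. A negative sign was found for 29 of 47 and 19 of 29, and for 8203 of the 18193 named genes.

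The size of these differences was small against their error. The median standard error of a member's difference was 0.10, and for 67 of the 76 genes the difference was smaller than the standard deviation between cultures of a group. The median size of a difference was a 1.05-fold change. For 75 of the 76 genes the 95% interval of the difference, taken gene by gene with no allowance for the number of genes, lay wholly within a 1.5-fold change either way. The exception was Mrps6. For 18 genes the interval lay within 1.2-fold, so smaller shifts of most members were not resolvable with 4 arrays per group.

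**Figure D1:**
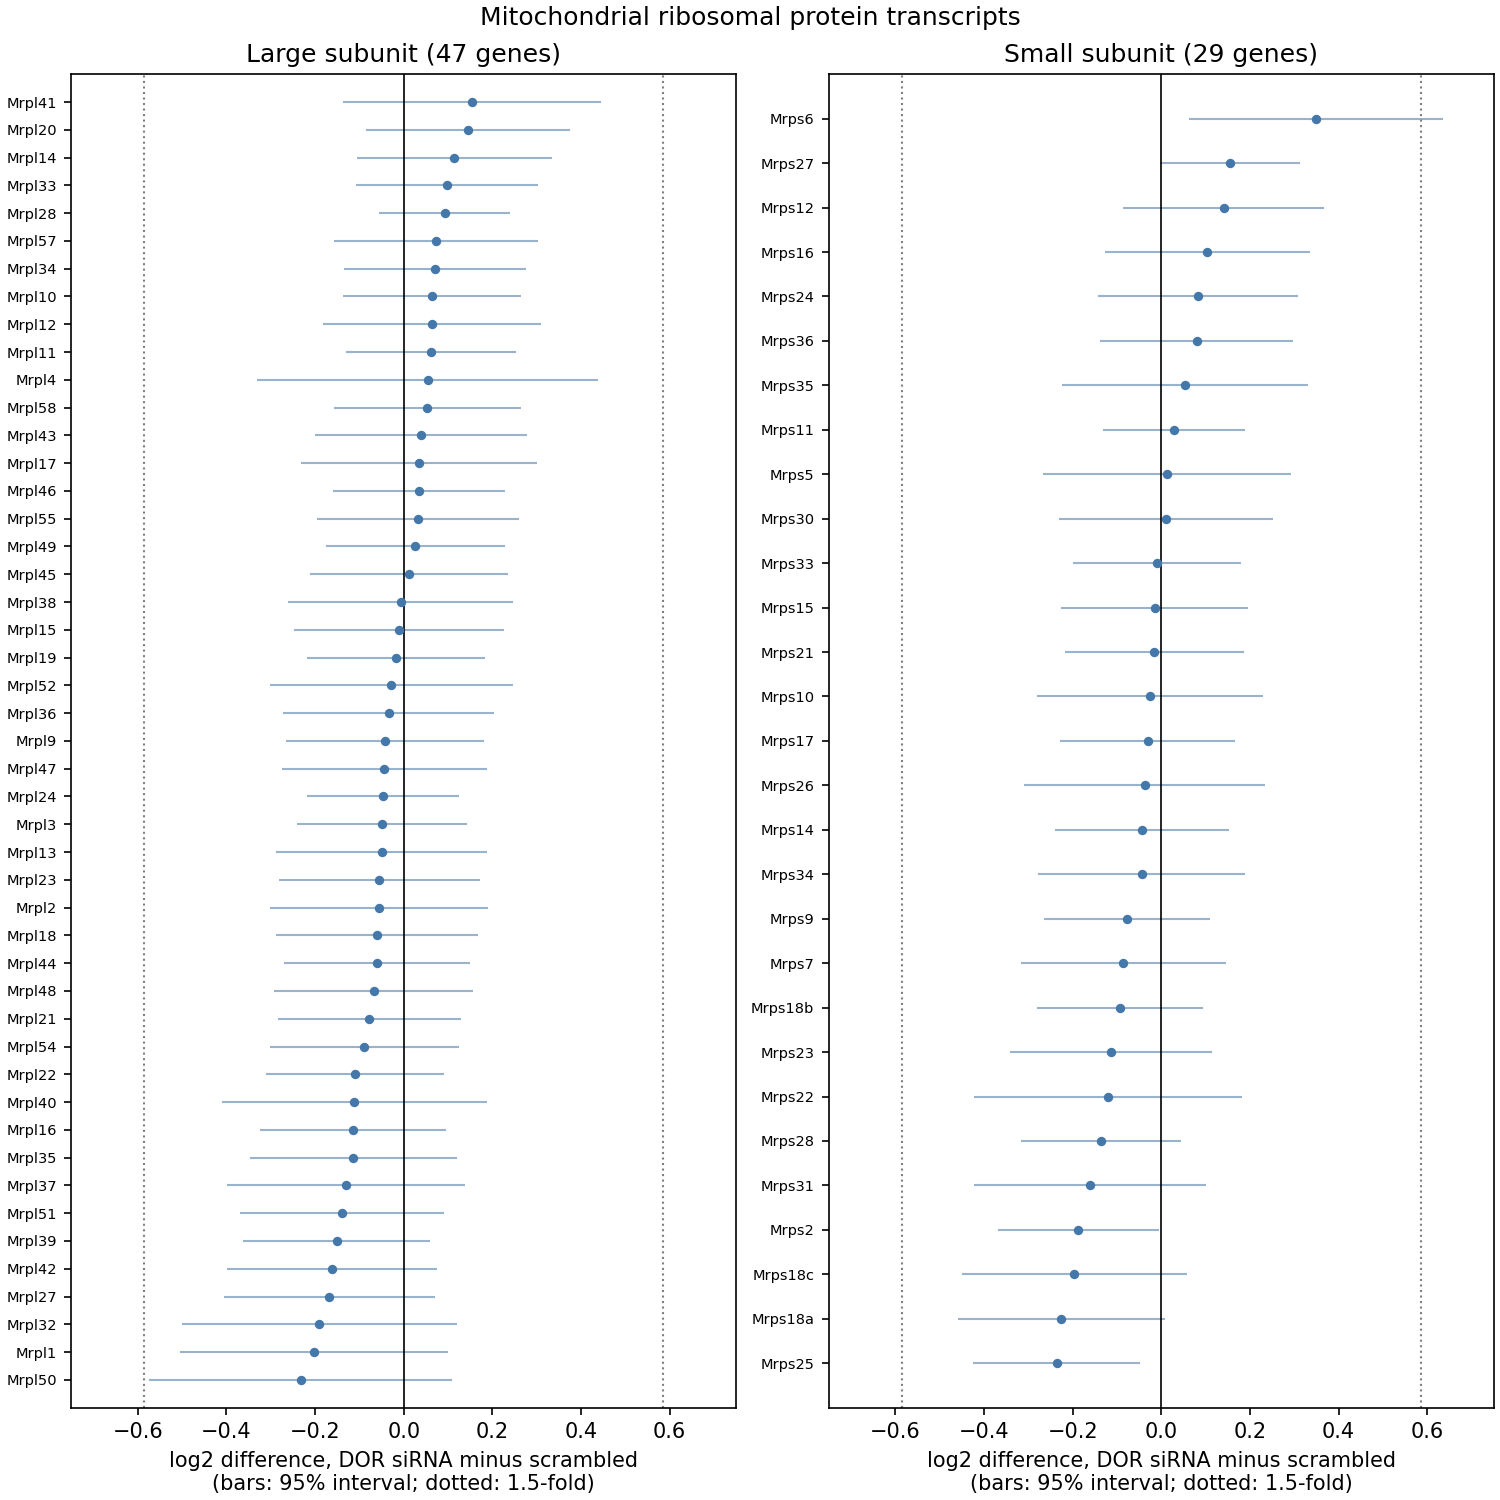
Log2 difference of each mitochondrial ribosomal protein gene, DOR siRNA minus scrambled (horizontal axis), with genes ordered by difference for the large subunit (left, 47 genes) and small subunit (right, 29 genes). Points are limma estimates from 4 arrays per group, bars are 95% intervals and dotted lines mark a 1.5-fold change; intervals of 3 genes, Mrps6, Mrps2 and Mrps25, leave out 0, and that of Mrps6 alone crosses a dotted line.

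In the large subunit the 5 most positive differences belonged to Mrpl41, Mrpl20, Mrpl14, Mrpl33 and Mrpl28. Mrpl41, a protein without bacterial counterpart that is also known for binding BCL2, read 9.34, 9.91, 9.49 and 9.77 in scrambled cultures and 10.01, 9.80, 9.60 and 9.71 in DOR siRNA cultures. The groups overlapped, and the difference of 0.15 ± 0.13 was within the spread between cultures (limma adjusted p = 0.68). A dimmer probe set of Mrpl41 had the opposite sign, at -0.12. Mrpl14, which lies at the contact with the small subunit, differed by 0.11 ± 0.10, and Mrpl20 by 0.14 ± 0.10. Mrpl33 differed by 0.10 ± 0.09 and Mrpl28 by 0.09 ± 0.07. The dimmer probe set of Mrpl33 had the opposite sign, at -0.015. Mrpl28 was among the steadiest members, with a standard deviation of 0.045 in scrambled and 0.038 in DOR siRNA cultures.

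The 5 most negative differences of the large subunit were those of Mrpl50, Mrpl1, Mrpl32, Mrpl27 and Mrpl42. Mrpl50, another protein without bacterial counterpart, read 9.56, 9.84, 9.58 and 9.95 in scrambled cultures and 9.73, 9.03, 9.50 and 9.73 in DOR siRNA cultures, where culture 2 lay far below the rest. Its difference was -0.23 ± 0.16 (limma adjusted p = 0.56). Mrpl1, of the mobile stalk beside the tRNA exit site, read 8.39, 8.87, 8.36 and 8.24 against 8.53, 8.24, 8.16 and 8.12, a difference of -0.20 ± 0.14. Mrpl32, whose maturation by the m-AAA protease is a known step of ribosome assembly, differed by -0.19 ± 0.14. Mrpl27, which reaches toward the catalytic centre, differed by -0.17 ± 0.11, and Mrpl42 by -0.16 ± 0.11. In each of these 5 genes the values of both groups overlapped by the brightest probe set. The dimmer probe set of Mrpl42 had the opposite sign, at 0.074.

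Grouped by place in the large subunit, members showed the same narrow range. The 3 genes of the stalk that recruits translation factors, Mrpl10, Mrpl11 and Mrpl12, had a median difference of 0.064. Mrpl12, which is also known to bind the mitochondrial RNA polymerase, read 9.77, 10.10, 9.60 and 9.80 in scrambled cultures and 10.06, 9.88, 9.83 and 9.74 in DOR siRNA cultures, a difference of 0.06 ± 0.11. Proteins around the exit of the nascent chain (7 genes) had a median of -0.047. Among them Mrpl45, which anchors the ribosome to the inner membrane, differed by 0.01 ± 0.10. The median was -0.055 for 5 genes near the catalytic core and -0.0065 for 7 of the central protuberance. The central protuberance includes Mrps30, a large subunit protein despite its symbol, at 0.01 ± 0.11. Proteins counted as particular to mitochondria, from both subunits (28 genes), had a median of -0.064. That list held Mrps18a (-0.23) and Mrps18b (-0.094) and left out Mrpl55 (0.03), Mrpl57 (0.07) and Mrpl58 (0.05). Its median with these genes placed otherwise was not computed. None of these groups held a called gene, and the groups were compared by description only.

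The small subunit held the widest differences. Mrps6, the counterpart of bacterial S6 on the platform of the subunit, read 9.83, 10.08, 9.95 and 10.42 in scrambled cultures and 10.41, 10.18, 10.50 and 10.58 in DOR siRNA cultures. Scrambled culture 4 lay among the DOR siRNA values, and the other 3 lay below them. The means were 10.07 ± 0.25 and 10.42 ± 0.17 (SD, n = 4), a difference of 0.35 ± 0.13 with a 95% interval of 0.063 to 0.63 (limma adjusted p = 0.21). Its dimmer probe set gave 0.32 ± 0.13 (limma adjusted p = 0.28). The call depended on 1 array: without scrambled 4 the difference was 0.46 (limma adjusted p = 0.038), and with arrays weighted by quality it was 0.46 (limma adjusted p = 0.036). With any other array left out the adjusted p was between 0.11 and 0.47, and it was 0.085 in the paired fit.

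Mrps27, a protein of the pentatricopeptide repeat family, was the only member by its brightest probe set whose groups did not overlap, where 12.2% of all genes showed no overlap (8.10% higher, as here, and 4.13% lower). It read 7.92, 7.93, 7.80 and 7.77 in scrambled cultures and 8.01, 8.03, 7.97 and 8.03 in DOR siRNA cultures. That is a difference of 0.15 ± 0.07, with a standard deviation of 0.08 in scrambled and 0.03 in DOR siRNA cultures (limma adjusted p = 0.33). Mrps12, at the decoding centre, differed by 0.14 ± 0.10. Mrps16, whose human gene is mutated in a mitochondrial disease, differed by 0.10 ± 0.11. Mrps24, at the channel where mRNA enters, differed by 0.08 ± 0.10. These 3 genes overlapped between the groups.

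On the negative side of the small subunit stood Mrps25, Mrps18a, Mrps18c, Mrps2 and Mrps31. Mrps25 read 9.28, 9.47, 9.25 and 9.35 in scrambled cultures and 9.27, 9.00, 9.03 and 9.09 in DOR siRNA cultures, where only culture 1 reached the scrambled range. The difference was -0.24 ± 0.09 with an interval of -0.42 to -0.048 (limma adjusted p = 0.19). The 2 dimmer probe sets of Mrps25 differed by -0.21 each. Mrps2 read 9.58, 9.59, 9.55 and 9.36 against 9.31, 9.42, 9.40 and 9.22, with scrambled culture 4 inside the DOR siRNA range. It differed by -0.19 ± 0.08 (limma adjusted p = 0.31), and its dimmer probe set differed by -0.25 ± 0.12. Human MRPS25 and MRPS2 are disease genes of mitochondrial translation. Mrps18a, a large subunit protein despite its symbol, differed by -0.23 ± 0.11. Mrps18c differed by -0.20 ± 0.12 and Mrps31 by -0.16 ± 0.12. Mrps36, since assigned to the 2-oxoglutarate dehydrogenase complex, differed by 0.08 ± 0.10.

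**Figure D2:**
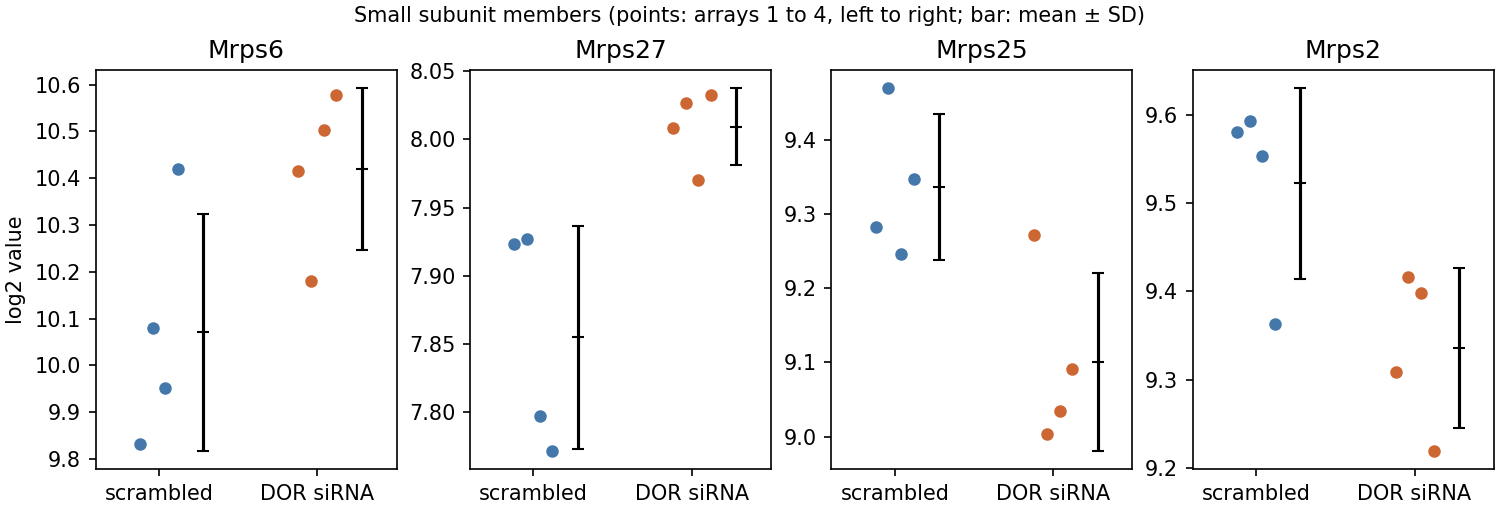
Log2 values (vertical axes, a separate scale for each gene) of Mrps6, Mrps27, Mrps25 and Mrps2 in the 4 scrambled (blue) and 4 DOR siRNA (orange) arrays, plotted from array 1 to array 4; black bars are the mean ± SD. Only the values of Mrps27 separate the groups, by a narrow gap between the nearest arrays.

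By position, 8 genes of the small subunit head had a median difference of -0.035 and 16 genes of the body and platform a median of -0.023. The head had 2 positive and 6 negative differences, and the body and platform had 6 and 10. Neither group held a called gene.

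Several probe sets were present for 42 of the 76 genes, which gave 80 dimmer probe sets beside the brightest ones. None of the 156 was called, against 3.22% of all probe sets (smallest limma adjusted p = 0.099). In the paired fit 1 was, a dimmer probe set of Mrpl3, against 6.28%. An unadjusted p under 0.05 was found for 13 of the 156, 2 with positive and 11 with negative differences, against 15.3% of all probe sets. For the dimmer ones alone it was 1 positive and 9 negative of 80, against 16.7% of dimmer probe sets of all genes in either direction and 8.69% lower. In 21 of the 42 genes the probe sets differed in sign. Of the 80 dimmer probe sets, 25 had a mean below the median of all probe sets, where a log2 difference is compressed and signal above background was not shown.

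Among the dimmer probe sets 8 separated the groups fully, each with the DOR siRNA arrays lower, and these are named after their values were seen. The share of dimmer probe sets of all genes without overlap was 10.1%, and 4.94% in that direction. They belonged to Mrpl1, Mrpl3, Mrpl47, Mrpl50, Mrps14, Mrps25 and, with both of its dimmer probe sets, Mrpl51. A dimmer probe set of Mrpl3 read 7.28, 7.74, 7.15 and 7.14 in scrambled cultures and 7.12, 7.05, 6.84 and 6.70 in DOR siRNA cultures, a difference of -0.40 ± 0.14 (limma adjusted p = 0.17, and 0.040 in the paired fit). Mrpl3 is a core protein near the catalytic centre, and its brightest probe set differed by -0.05 ± 0.09. For Mrpl47, of the exit tunnel rim, the separating probe set differed by -0.35 ± 0.10 (limma adjusted p = 0.099) and the brightest by -0.04 ± 0.11. For Mrps14 the values were -0.21 ± 0.07 and -0.04 ± 0.09. Which transcript ends or introns the dimmer probe sets read was not analysed here.

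The members varied together from array to array more than between the groups. Taking each gene relative to its mean over the 4 scrambled arrays, the median over the large subunit was -0.038, 0.23, -0.086 and -0.086 on scrambled arrays 1 to 4 and 0.091, -0.033, -0.072 and -0.12 on DOR siRNA arrays 1 to 4. Small subunit medians were -0.0069, 0.21, -0.091 and -0.11 on the scrambled arrays and 0.12, -0.023, -0.11 and -0.14 on the DOR siRNA arrays. Both subunits were thus highest on scrambled 2 and next on DOR siRNA 1, and the groups overlapped. Over all genes the same medians stayed between -0.0060 and 0.033. Quantile normalization, which gives all arrays 1 distribution of values, tends to hold that median near 0.

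Scrambled 2 held the highest of the 8 values for 59 of the 76 members (77.6%), compared with 17.5% of all genes, and the lowest for none. DOR siRNA 1 was highest for 11. The lowest value was on DOR siRNA 4 for 23 members, on scrambled 4 for 17 and on scrambled 1 for 12. Without scrambled 2 the median differences became 0.047 for the large and 0.036 for the small subunit, so the sign of both medians rested on that array. The count of members called stayed at 0 without it. Without DOR siRNA 4 the large subunit median was 0.0063, so its sign turned there too.

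Control probe sets gave these values beside that pattern. The mean of the hybridisation controls was 10.83 on scrambled 2 and between 10.46 and 10.75 on the other arrays. The poly-A controls were at 8.60 on scrambled 2 within a range of 7.90 to 8.72, and the 3' minus 5' signal of actin was 0.40 within a range of 0.28 to 0.50. DOR siRNA 2, the other array of pair 2, had the highest actin value, 0.50, and the lowest hybridisation controls, 10.46. Its 3' minus 5' signal of Gapdh was 0.065, and the other arrays lay between -0.16 and -0.094. The part of RNA quality and of the controls in the array pattern was not tested.

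**Figure D3:**
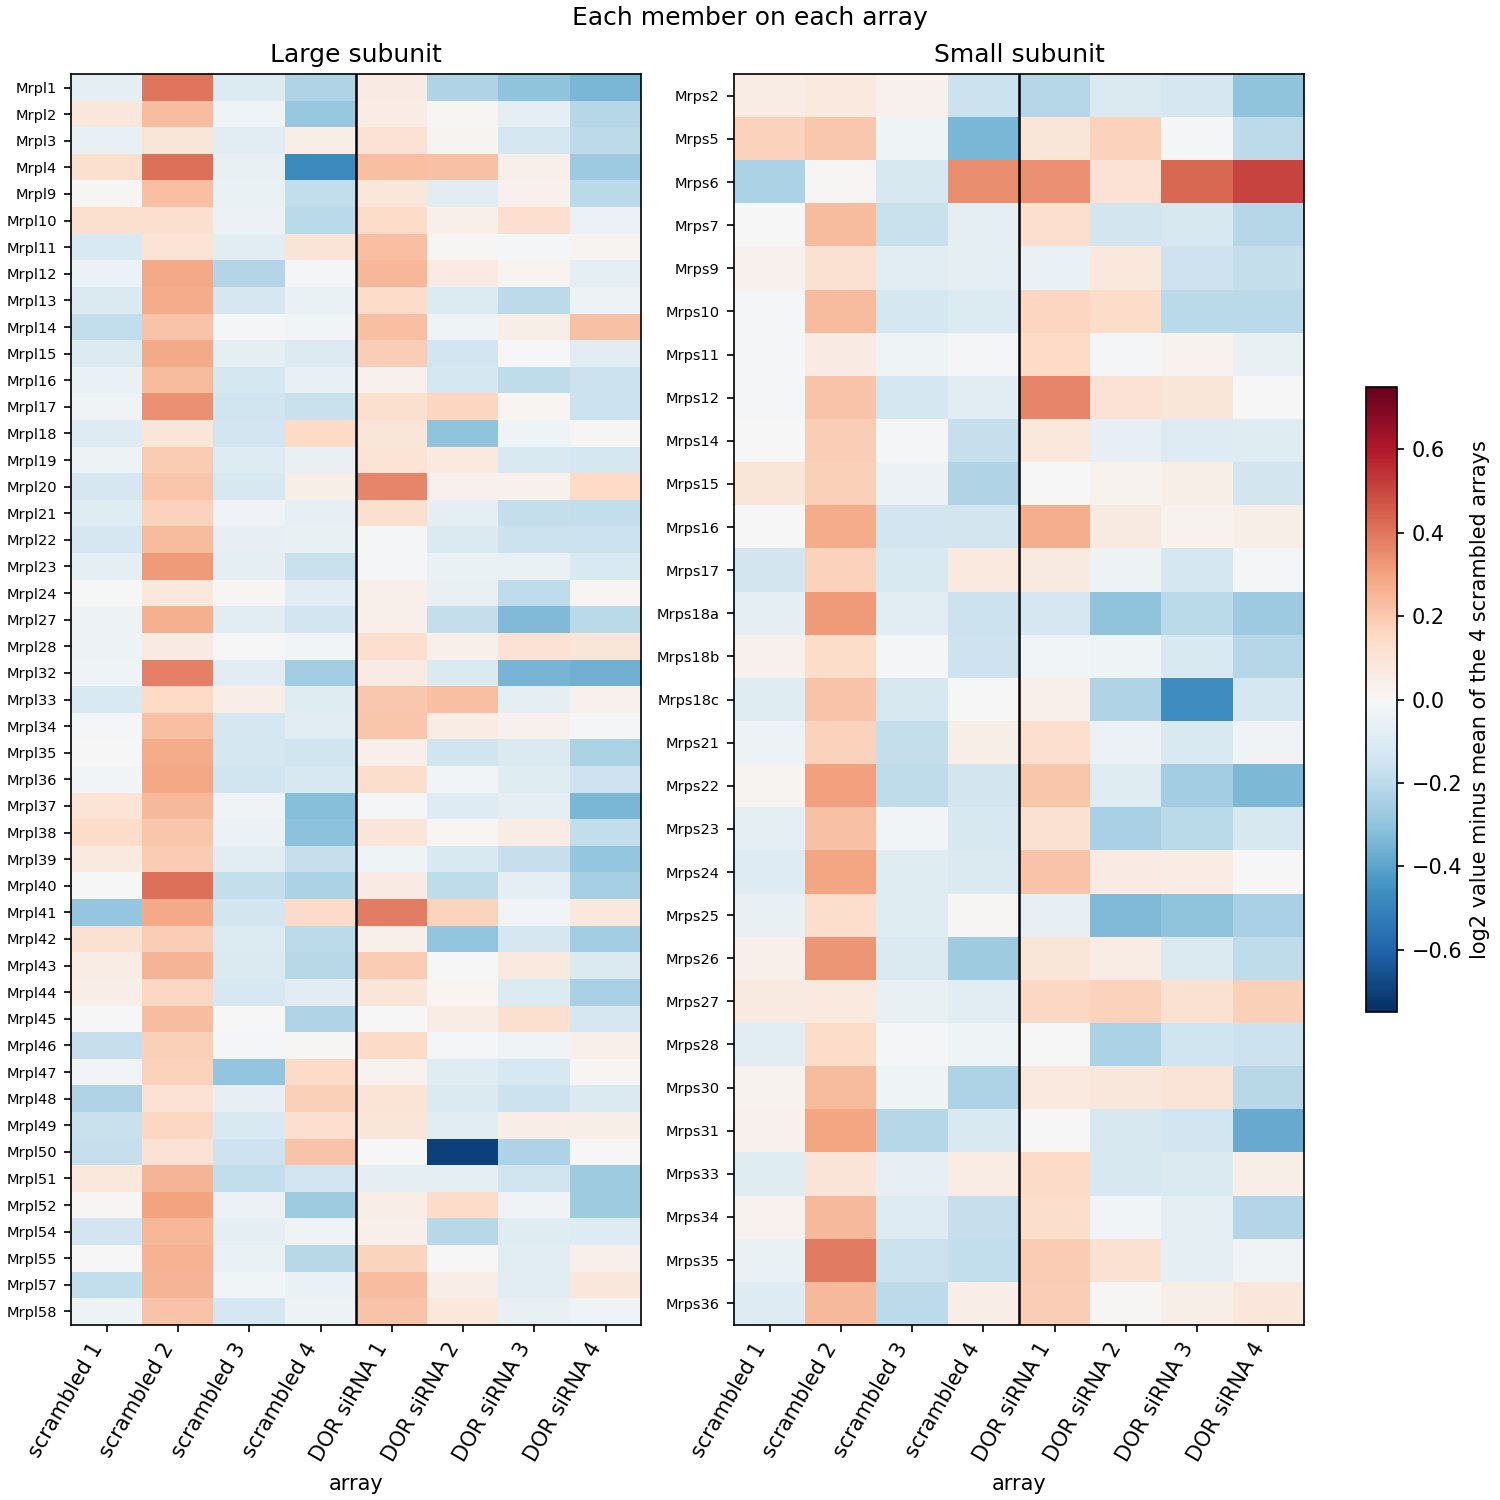
Log2 value of each member (rows) on each array (columns) minus the gene's mean over the 4 scrambled arrays, for the large subunit (left) and small subunit (right); red is above and blue below that mean, and the black line parts scrambled from DOR siRNA arrays. The column of scrambled 2 is red for most rows of both panels, and Mrps6 stands out as the row with a different course.

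The same arrays can be read as 4 pairs, since cultures with the same number share part of their deviations over all probe sets. Over the members alone the correlation of these deviations was -0.21 in pair 1 and 0.30, 0.15 and 0.75 in pairs 2 to 4, so it was not positive in every pair. In pair 1 the DOR siRNA value was above the scrambled one for 62 of 76 members, with medians of 0.14 (large) and 0.13 (small). In pair 2 this held for 3 members, Mrpl33, Mrps6 and Mrps27, with medians of -0.24 and -0.22. Pair 3 had 41 and pair 4 had 33 members above, with medians of 0.022 and 0.014 in pair 3 and -0.027 and -0.043 in pair 4. The pairs therefore pointed in different directions for most members. Mrps6 and Mrps27 were higher in the DOR siRNA culture of all 4 pairs, a pattern found in 18.1% of all genes. Lower in all 4 pairs were Mrpl37, Mrpl39, Mrpl42, Mrps2, Mrps9, Mrps18a, Mrps18b and Mrps25, against 12.5% of all genes.

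**Figure D4:**
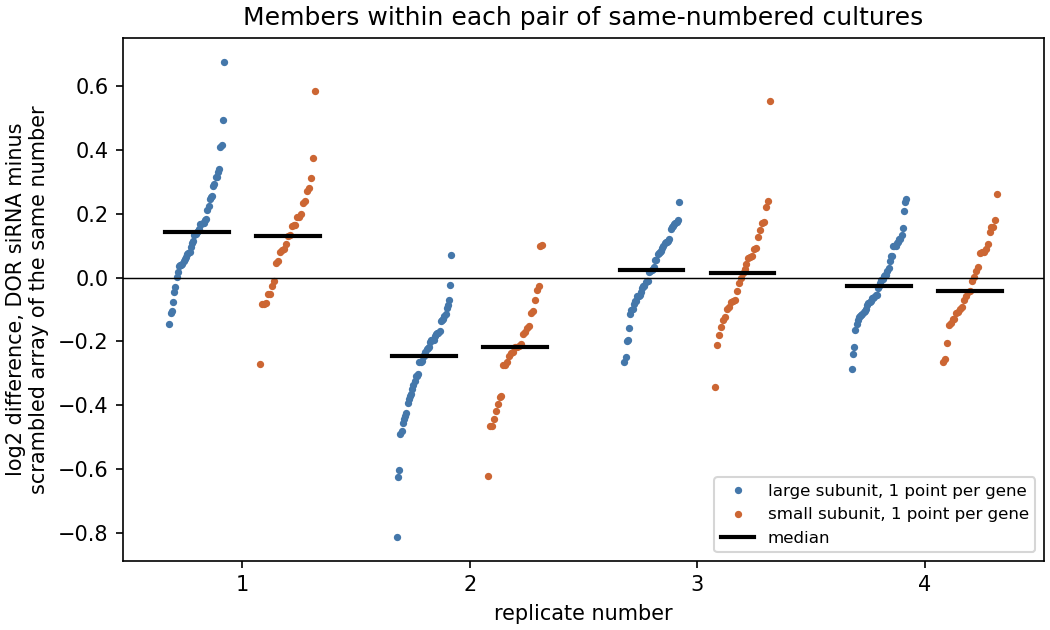
Log2 difference between the DOR siRNA and the scrambled culture of the same replicate number (vertical axis) for each replicate number (horizontal axis); each point is a gene of the large (blue) or small (orange) subunit, sorted by value within a pair, and black lines are medians. Pair 1 lies mostly above 0, pair 2 almost wholly below it, and pairs 3 and 4 straddle it.

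Promoter sequence was looked at as a feature that the members might share. Transcription of this family is classically tied to NRF1 and to the ETS factor GABP. RefSeq starts on GRCm38.p6 were found for 67 of the 76 genes, and the 250 bases before each start were searched on both strands for the NRF1 consensus, CCGGAAG (ETS), AAGATGGC (YY1) and CACGTG (E-box). The ETS letters were found in 17 of 67 members (25.4%) and in 11.8% of 14453 genes on the array with a listed start. The NRF1 consensus was in 9 members (13.4%) against 7.00%. By subunit it was in 8 of 41 large subunit genes (19.5%) and 1 of 26 small subunit genes (3.85%), the latter below the share of array genes. The ETS letters were in 11 of 41 (26.8%) and 6 of 26 (23.1%). Over both subunits, the YY1 letters were in 4 members (5.97%) against 2.05% and the E-box in 5 (7.46%) against 8.73%. The share of G and C was 58.0% in the members and 57.7% in the array genes. These are matches of letters, not shown to be bound. The upstream sequences of 4 members are given from RefSeq, 5' to 3' on the gene's own strand, with the matched letters of any of the 4 motifs, read on either strand, in capitals: Mrpl17 for its matches to both NRF1 and ETS, Mrpl12 for NRF1 next to its link with the polymerase, Mrps27 as the member whose groups did not overlap, and Mrps6 as the member with the widest difference, which held no match in this window.
Mrpl17, chr7:105811088-105811337 (- strand): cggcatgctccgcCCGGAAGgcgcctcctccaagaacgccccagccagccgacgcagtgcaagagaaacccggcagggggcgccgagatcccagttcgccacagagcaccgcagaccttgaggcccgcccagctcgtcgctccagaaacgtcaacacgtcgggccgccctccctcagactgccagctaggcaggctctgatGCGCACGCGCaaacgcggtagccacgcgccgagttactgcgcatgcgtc
Mrpl12, chr11:120484387-120484636 (+ strand): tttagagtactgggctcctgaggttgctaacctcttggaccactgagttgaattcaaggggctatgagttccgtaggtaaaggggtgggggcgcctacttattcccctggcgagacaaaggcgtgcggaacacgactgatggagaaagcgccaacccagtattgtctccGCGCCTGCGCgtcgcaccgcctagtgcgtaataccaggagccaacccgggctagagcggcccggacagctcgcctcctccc
Mrps27, chr13:99344536-99344785 (+ strand): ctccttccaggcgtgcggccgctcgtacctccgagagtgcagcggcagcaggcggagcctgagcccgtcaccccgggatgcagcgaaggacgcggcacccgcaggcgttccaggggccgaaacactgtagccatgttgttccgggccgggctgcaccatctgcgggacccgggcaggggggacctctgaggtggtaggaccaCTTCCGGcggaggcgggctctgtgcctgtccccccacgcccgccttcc
Mrps6, chr16:92058086-92058335 (+ strand): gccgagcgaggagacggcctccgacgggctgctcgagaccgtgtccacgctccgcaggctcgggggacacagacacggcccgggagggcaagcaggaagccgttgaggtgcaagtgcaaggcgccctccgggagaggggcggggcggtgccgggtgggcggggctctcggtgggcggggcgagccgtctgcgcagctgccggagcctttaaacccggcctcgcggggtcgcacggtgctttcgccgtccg
The first matched base lay 49 bases before the start for NRF1 and 237 for ETS in Mrpl17, 81 for NRF1 in Mrpl12 and 48 for ETS in Mrps27.

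Other genes of mitochondrial translation were counted list by list. Of 4 ribosomal proteins that carry other symbols none passed the limma test. Among these Ptcd3, a repeat protein by the mRNA entry of the small subunit, differed by -0.18 ± 0.09 and Gadd45gip1 by 0.22 ± 0.12. In the list of 16 translation factors and other genes none passed, with a median of -0.024. Among the others were Lrpprc, Slirp, Oxa1l, Rmnd1 and Hibch, which are not translation factors. The median without them was not computed. At an unadjusted p under 0.05, 1 of the 16 was higher and 3 were lower, against 11.5% and 6.55% of all genes. The elongation factor Gfm1 differed by -0.20 ± 0.07 (limma adjusted p = 0.20), and Gfm2, which splits the subunits after termination, by -0.34 ± 0.13 (limma adjusted p = 0.21, and 0.036 without scrambled 4, where it differed by -0.46).

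Of 21 aminoacyl-tRNA synthetase and amidotransferase genes that act in mitochondria 1 passed, against 4.56% of all genes (1.45% lower, as here). Mars2, which charges the methionine tRNA, read 5.93, 5.88, 6.10 and 5.90 in scrambled cultures and 5.70, 5.48, 5.59 and 5.40 in DOR siRNA cultures. It fell by 0.41 ± 0.09 (limma adjusted p = 0.033), but with both means under 6.18, the median probe set, signal over background was not shown. The call of Mars2 was lost when scrambled culture 1, 2 or 3 was left out, and likewise DOR siRNA culture 2, 3 or 4, with limma adjusted p from 0.060 to 0.099. It was lost as well when its probe sets were averaged, with a difference of -0.24 (limma adjusted p = 0.069). The median of that list was -0.048. At an unadjusted p under 0.05, 4 of its 21 genes were lower (Mars2, Qrsl1, Kars and Gars), against 6.55% of all genes, and none was higher. None of 31 genes of ribosome assembly and RNA modification passed (median -0.065). There Nsun4, a methyltransferase that joins subunit assembly, differed by -0.26 ± 0.11, and Tfb1m, which methylates the small rRNA, by -0.24 ± 0.11. None of 18 genes that maintain or transcribe mitochondrial DNA or regulate it from the nucleus passed (median -0.063). Tfb2m, a transcription initiation factor, differed by -0.27 ± 0.10 (limma adjusted p = 0.21) and the coactivator Ppargc1b by -0.20 ± 0.10.

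The closest comparison sets were the nuclear OXPHOS subunits, which join the products of this ribosome in the respiratory chain, and the cytosolic ribosomal proteins. None of 82 OXPHOS genes was called (median -0.050, and 58 of 82 negative), with Atp5md at -0.31 ± 0.10 (limma adjusted p = 0.13) and Cox4i2 at 0.23 ± 0.08 (limma adjusted p = 0.18). Both means of Cox4i2 were under 6.18, so its signal over background was not shown. In the paired fit 2 of the 82 OXPHOS genes were called, both lower, against 8.25% of all genes (574 of 18193 called lower). Both were lower in all 4 pairs, as were 12.5% of all genes. Cox6a2, the heart and muscle form of a cytochrome c oxidase subunit, differed by -0.90 ± 0.48 in the unpaired fit (limma adjusted p = 0.43, and 0.0046 paired). Its scrambled arrays ranged from 9.01 to 11.33 and its DOR siRNA arrays from 8.51 to 10.23. Ndufs8, a subunit of complex I, differed by -0.41 ± 0.15 (limma adjusted p = 0.21, and 0.048 paired). The OXPHOS median per array was also highest on scrambled 2, at 0.20, and 61 of its 82 genes had their highest value there. None of 46 cytosolic ribosomal protein genes, paralogues included, was called either (median 0.068, and 42 of 46 positive). Their smallest p belonged to Rps3 (0.26 ± 0.10, limma adjusted p = 0.22) and Rpl39 (0.17 ± 0.08). The scrambled means were 13.22 for Rps3 and 6.96 for Rpl39. Only probe sets with a single symbol were used, and some genes of the set had both means under 6.18. Rps16, for example, had means of 3.31 and 3.45, so signal over background was not shown for such genes. On scrambled 2 the cytosolic set stood at 0.053, and 5 of its 46 genes were highest there. Probe sets of cytosolic ribosomal proteins may also read near-identical pseudogene copies. Whether the sets differ from each other was not tested.

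**Figure D5:**
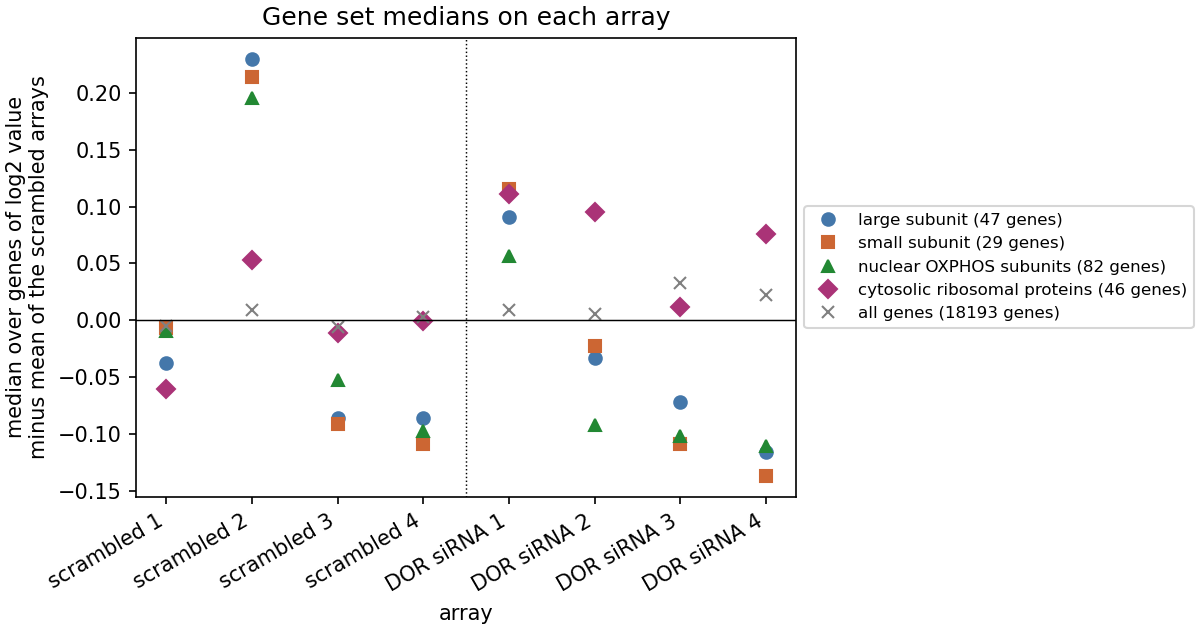
Median over the genes of a set of the log2 value minus the gene's mean over the 4 scrambled arrays (vertical axis) on each of the 8 arrays (horizontal axis), for both subunits of the mitochondrial ribosome, nuclear OXPHOS subunits, cytosolic ribosomal proteins and all genes. The large and small subunit and the OXPHOS set stand at 0.23, 0.21 and 0.20 on scrambled 2. All genes stay near 0 on every array, where quantile normalization tends to hold them.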

How the data were processed

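RNA of 8 cultures, 25 ng each, went through whole transcriptome amplification and onto Affymetrix arrays of a single colour, as the labels' protocols state. The deposited log2 values per probe set were made by the authors with RMA, which corrects background, quantile-normalizes arrays and summarises probes, per the submitters' processing notes; its version is not given in the sources used here. Quantile normalization hides a shift shared by all transcripts. Array medians ran from 6.14 to 6.20 and correlations between arrays from 0.988 to 0.997. Precision is limited by how many arrays there are. After 64 control probe sets were removed, 45037 entered limma 3.58.1 in R 4.3.3 (group alone, eBayes, Benjamini-Hochberg over all); an adjusted p under 0.05 was a call. Gene names came from the platform annotation: 34945 with a single symbol, 932 with several and 9160 with none. All 76 members matched RefSeq identifiers and kept their symbols. Deviations of same-numbered cultures had correlations of 0.142 to 0.468 over all probe sets, and 5 of the 8 arrays correlated best with their own number. Same-numbered cultures were taken as paired in a second fit.

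Members named were those called, the 5 largest differences of each sign per subunit, members without overlap, 6 fixed for their role, and, per pathway list, up to 3 called genes or, with none called, the 2 with the smallest p. Members, lists and rules were chosen with earlier results of these data known. Only the limma fit was tested on simulated data, with independent noise on each array and so without the shared array deviations described above. Alternatives covered pairing, variance model, array weights, cyclic loess, centring, a filter on dim probe sets, the choice of probe set and leaving out each array. Figures were drawn with matplotlib 3.10.9.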

Additional observations from a re-analysis of the deposited data

Results flagged for a closer look

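Chance flags about 1 in 20 groups of 4 by the rule used here, which asks whether the highest or lowest value is far from the other 3 for its group's range. Of 54 groups looked at, 4 met it. The median of the large subunit on scrambled 2 was 0.23, with the other scrambled arrays between -0.086 and -0.038. Mrps24 read 10.26 on scrambled 2 and 9.85 to 9.87 on the others. Mrps16 read 10.68 on DOR siRNA 1, with 10.43 to 10.47 on the others. Mrps30 read 9.88 on DOR siRNA 4, and the others lay between 10.17 and 10.19.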

How the results depend on the processing

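The count of large subunit members called was 0 under each alternative run. For the small subunit it was 0 to 1 when arrays were left out in turn (1 without scrambled 4) and 1 with array weights, in each case Mrps6. Median differences moved by less than the standard deviation of the array medians under all alternatives. That deviation, 0.12 (large) and 0.13 (small), was wider than the medians themselves, so a turn of sign also counted as unmoved. Both signs turned without scrambled 2, and that of the large subunit also without DOR siRNA 4. Leaving out arrays gave -0.074 to 0.047 (large) and -0.10 to 0.036 (small). Among the 24 members named, signs turned in 3: Mrpl12 (-0.0095 to 0.16 with arrays left out), Mrpl45 (-0.064 to 0.088) and Mrps30 (-0.067 to 0.089, and -0.0031 with array weights). Over all probe sets 1452 were called, 2827 with the replicate block, 2628 with array weights and 608 to 2310 with an array left out. With the replicate block 2 of 82 OXPHOS genes were called, against 8.25% of all genes, and no call of a member's brightest probe set changed. With arrays left out the counts were 0 to 1 for the list with translation factors, for genes of mitochondrial DNA expression and for OXPHOS genes. They were 0 to 2 for synthetases. The synthetase count was 2 with array weights and 0 with probe sets averaged per gene. It was also 0 with only probe sets at or above the median, but that filter removes Mars2 before the fit and so does not test its call. Differences under 1.2-fold were mostly not resolvable with 4 arrays per group.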
